A study of Mus musculus with 2 samples.

Results

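Dense clusters of NANOG sites, in which 5 or more ChIP-seq summits followed each other along a chromosome with gaps of at most 10 kb, were chosen by the positions of the summits in the authors' optimal peak set. The set was the one the authors obtained from the data of both replicates by IDR, a procedure that keeps peaks ranked alike in the lists it compares. A peak of the set was not always found in each replicate, as given below. On chromosomes 1 to 19 and X it held 15852 summits in 12946 clusters, single summits included, and 32 clusters with 181 summits (1.14%) met the rule. A further 39 summits lay on other sequences and were not joined. Since positions in the optimal set chose the clusters, their number, length, spacing and signals are a description and were not tested.

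NANOG was mapped by chromatin immunoprecipitation and sequencing in E14TG2a.4 cells. This embryonic stem cell line is male, comes from mouse strain 129/Ola and is labelled embryonic with an age of 3.5 days. The labels give 1 group of 2 biological replicates, each with 1 technical replicate and the same NANOG antibody, so no conditions were compared. Each replicate has its own biosample record, but the labels used here do not say how far apart the cultures were kept, so likeness between the replicates may in part be technical. The depth of each library is unknown, and the control experiment that the labels name was not used here.

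NANOG, a DNA-binding protein with a homeodomain, belongs to the pluripotency network and often binds beside OCT4 and SOX2. In embryonic stem cells, sites of such factors can lie in groups near genes of cell identity, and the most heavily occupied groups have been called super-enhancers. The rule used here measured spacing only and took no account of the height of a peak. MicroRNAs are short RNAs that pair with target messages through a seed near their 5′ end, and the miR-290 family is abundant in mouse embryonic stem cells.

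The cluster with the most summits and the highest summed signal of its size lay beside the miR-290 family, and a cluster on chromosome X lay beside the hairpins of a related family. Their mature sequences are shown because members of both families share letters of the seed. Sequences are from RefSeq on GRCm38.p6, written 5′ to 3′, with the seed (bases 2 to 8) in capitals. Those from chromosome 7 lie on the + strand and those from chromosome X on the - strand.
mmu-miR-290a-3p (chr7:3218674-3218697): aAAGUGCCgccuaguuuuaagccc
mmu-miR-291a-3p (chr7:3218968-3218989): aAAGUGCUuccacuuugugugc
mmu-miR-291b-3p (chr7:3219529-3219550): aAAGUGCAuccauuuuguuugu
mmu-miR-294-3p (chr7:3220691-3220712): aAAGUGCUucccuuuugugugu
mmu-miR-295-3p (chr7:3220815-3220837): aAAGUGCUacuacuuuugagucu
mmu-miR-20b-5p (chrX:52742159-52742181): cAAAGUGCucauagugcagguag
mmu-miR-106a-5p (chrX:52742541-52742563): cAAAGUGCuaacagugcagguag

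Of 30 mature miRNAs in the table that lay within 20 kb of a dense cluster, these 7 held the letters AAGUGC within bases 2 to 9, against 17 of all 1679 in the table. The seed AAGUGCU was shared by miR-291a-3p, miR-294-3p and miR-295-3p, and the seed AAAGUGC by miR-20b-5p and miR-106a-5p, whose letters sit 1 base further from the 5′ end. The letters counted are ones that these sequences share, so that contrast is a description. Hairpins were looked at after the values of the clusters had been seen. Among 1005 hairpin entries in the table, 15 (1.49%) lay within 20 kb of a dense cluster, beside 3 clusters. The entries do not cover every mature miRNA: miR-291a-5p, miR-291a-3p and miR-1192 were near clusters too and are counted among the mature sequences only. The mature sequences are not complete either: miR-292a-5p was among them and miR-292a-3p was not, so the 7 need not be all. Hairpins of 1 family lie side by side and are not independent.

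On chromosome 7, 8 of the hairpin entries, Mir290a, Mir290b, Mir292, Mir292b, Mir291b, Mir293, Mir294 and Mir295, lay 1.04 to 3.18 kb beyond the last summit of the cluster between AU018091 and Nlrp12 (chr7:3193294-3217590). The cluster ended upstream of those on the + strand, while Mir290b and Mir292b are on the - strand. Nlrp12, a gene of the NOD-like receptor family, ended 1.05 kb past the last summit and started 32.2 kb past it. The hairpins from Mir292 at 1.6 kb to Mir295 at 3.18 kb thus lay inside Nlrp12, and Mir290a and Mir290b lay at its end. The other neighbour, AU018091, started 24.1 kb before the cluster. The span overlapped no annotated gene.

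The optimal signals of the 8 summits, in order along the chromosome, were 182.6, 29.6, 182.5, 34.8, 31.9, 25.2, 37.1 and 39.5. A pair of high peaks 13.41 kb apart therefore stood among 6 low ones. All 8 peaks were in the top list of replicate 1, and 2, the high pair, were in that of replicate 2. The highest regions of replicate 1 at the high pair had signals of 125.7 and 132.8, and those of replicate 2 had 58.2 and 50.1. At the other peaks replicate 1 had 21.0 to 36.3, and replicate 2 had at most 8.0 where it listed a region.

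On chromosome X, a cluster of 5 summits (chrX:52745617-52760689) had 6 hairpins on 1 side, Mir106a at 3.05 kb to Mir363 at 3.85 kb. Its nearest protein-coding start was that of Ccdc160, 30.5 kb away, and it overlapped no protein-coding gene. Its signals were 38.4, 35.5, 8.6, 58.9 and 23.5, so no peak reached 100. The first 4 peaks were found in the conservative set and in both top lists, and the last in that of replicate 1 only. The peaks of 35.5 and 8.6, with summits 200 bp apart, overlapped and met the same highest region in each replicate. Counted as 1, they left the cluster with 4 summits, under the 5 of the rule. The last of the hairpin entries within 20 kb was Mir8110, inside the cluster next to Sall1, and mature miR-1192 lay inside the cluster at Klf9.

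**Figure D1:**
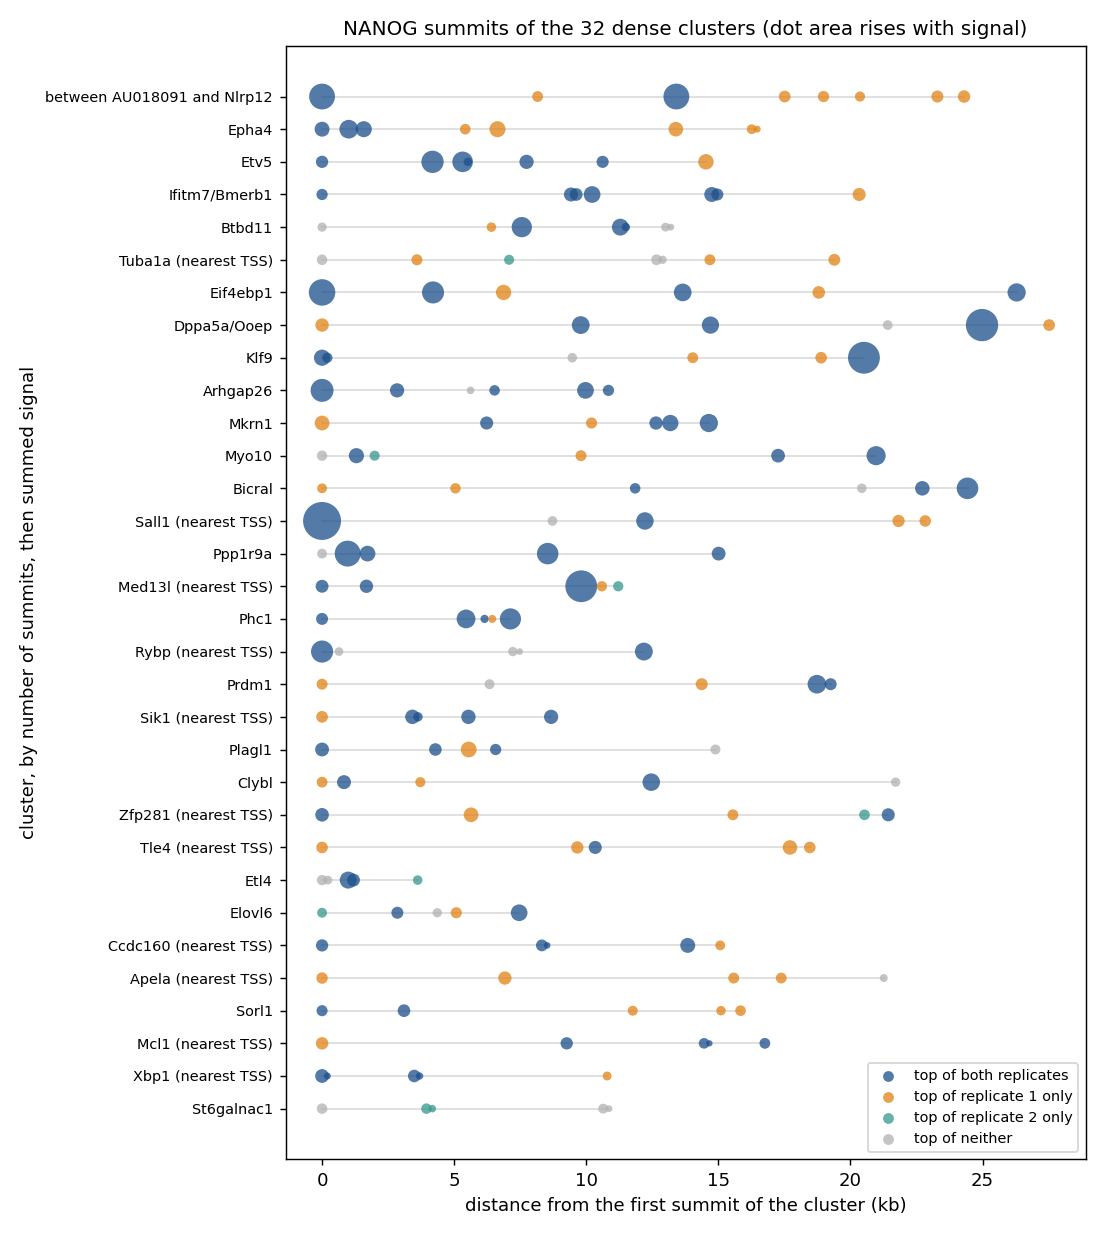
Each row is 1 of the 32 dense clusters, and dots are its summits by distance in kb from the first, with a larger area for a higher optimal signal and a colour for the replicate top lists that hold the peak. High peaks in the top lists of both replicates often stand beside low peaks found in the list of replicate 1 only, as between AU018091 and Nlrp12, where the highest signal is 182.6 and the lowest 25.2.

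The clusters lay on 17 chromosomes and covered 528.0 kb in all, with lengths of 3.62 to 27.5 kb and a median of 16.2 kb. Of the 32, 19 held 5 summits, 7 held 6, 4 held 7 and 2 held 8. Just outside the rule, 83 clusters held 4 summits. The widest gap joined within a cluster was 9910 bp, in the one near Zfp281, and the nearest summit left outside was 10.1 kb away, beside the cluster in Ppp1r9a. On 7 sides of a cluster the next summit lay within 12 kb, and the median over all sides was 46.7 kb.

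Signals in the dense clusters were not high for the optimal set. They ran from 7.6 to 398.0 with a median of 36.7 and quartiles of 25.6 and 58.6. The -log10 of the q-value was 0.264 at the peak of 7.6, near Mcl1, and 3.70 at that of 398.0. No threshold on q was applied here, so weak calls count as summits. Over all optimal peaks the median was 40.1, the quartiles 27.2 and 68.5 and the highest value 675.8. A signal of 100 or more was found at 17 of the 181 peaks (9.39%), spread over 13 clusters, against 13.9% of all peaks. The median by cluster size was 41.1 for single summits, 37.6, 39.1 and 40.0 for clusters of 2, 3 and 4, and 36.7 for dense clusters.

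Within a cluster the signal was uneven. The highest peak held 18.5 to 69.4% of the summed signal, with a median of 34.9%. It held over 50% in 4 clusters, next to Sall1 (69.4%), upstream of Med13l (66.3%), at Klf9 (60.7%) and at Dppa5a and Ooep (51.6%). At the other end, the cluster between Tuba1a and Tuba1c had 7 summits of 15.5 to 35.7 and a highest share of 18.5%. Summed signals ran from 99.7 in the cluster at St6galnac1 to 599.6 in the one at Eif4ebp1, with a median of 269.0.

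Some neighbours were not separate regions. Of 149 gaps between neighbouring summits, the narrowest was 199 bp and the median 2886 bp, and 17 gaps of at most 250 bp were found in 12 clusters. In 19 pairs, in 14 clusters, the regions themselves overlapped, which took in 38 dense peaks (21.0%) against 1335 (8.42%) of all optimal peaks. A rule on close summits favours such pairs, and that contrast is a description.

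The lower summit of an overlapping pair had a signal of 7.6 to 42.5 (median 14.5), and the higher of 15.4 to 114.6 (median 35.5). In replicate 1 both summits of all 19 pairs met the same highest region, and in replicate 2 those of 16 pairs did. When summits within 500 bp counted as 1, 162 peaks were left, 24 of the 32 clusters still held 5 or more, and the other 8 held 3 or 4. Those with 3 were at Etl4, near Xbp1 and at St6galnac1. Those with 4 were at Phc1 and near Rybp, Sik1, Ccdc160 and Mcl1. The width was 364 bp for 78.5% of dense peaks and 78.0% of all.

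**Figure D2:**
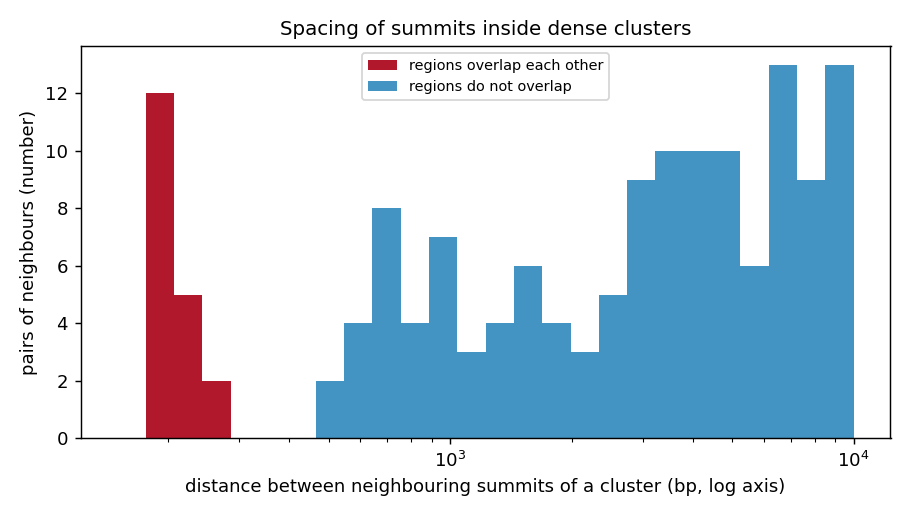
The histogram gives the number of pairs of neighbouring summits inside dense clusters by their distance in bp on a log axis, with pairs whose regions overlap in red and the others in blue. The 19 overlapping pairs stand apart at the narrow end, and the rest extend to 9910 bp.

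Protein-coding genes were overlapped by 20 clusters, and 7 of the other 12 overlapped no gene of any kind. In 12 clusters every summit lay in a protein-coding gene and in 12 none did. A transcription start (TSS, the 5′ end of the gene) lay inside 6 clusters, those at Ifitm7 and Bmerb1, Eif4ebp1, Dppa5a, Klf9, Mkrn1 and Phc1. Counts over whole spans depend on the length of the span. They are given without a background, because most smaller clusters are single summits. Exon and intron positions on mm10 were not used here.

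Of the 181 peaks, 85 (47.0%) were in a protein-coding gene against 45.6% of all optimal peaks. Only 3 (1.66%) lay within 1 kb of a TSS, and 34 (18.8%) within 10 kb, against 3.21% and 20.5% of all. Within 50 kb of a TSS were 126 (69.6%), against 53.5% of all. The median distance to a TSS was 30.1 kb for dense peaks and 43.3 kb for all, and 20.9 kb for peaks of clusters of 4.

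Because summits of a cluster share their location, tests used the middle summit of each cluster and compared the 32 dense clusters with the 12914 smaller ones. The two-sided Fisher exact test was used, adjusted by Benjamini-Hochberg over 3 measures. Intervals of percentages are exact Clopper-Pearson limits at 95%, and those of odds ratios are conditional limits at 95%. Both cover counting error only. The middle summit lay inside a protein-coding gene in 14 dense clusters (43.8%, 26.4 to 62.3%), against 45.7% of clusters of any size. The odds ratio was 0.925 (0.426 to 1.97) and the adjusted p 1.0.

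Within 10 kb of a TSS lay 6 of the 32 (18.8%, 7.21 to 36.4%), against 20.3% of clusters of any size. The odds ratio was 0.905 (0.304 to 2.25), again with an adjusted p of 1.0 by the exact test. Within 50 kb of a TSS lay 22 of 32 (68.8%, 50 to 83.9%), against 52.4% of clusters of any size. The odds ratio of 2.0 (0.908 to 4.74) had an exact p of 0.0761 and an adjusted p of 0.228, and it did not pass the threshold of 0.05. It passed with a joining distance of 20 kb (1.96, 105 clusters, adjusted p 0.00339) and without replicate 2 (3.98, 21 clusters, adjusted p 0.0234). Leaving out replicate 2 meant using the top list of replicate 1, not a new optimal set. Over all alternatives the adjusted p for 50 kb ran from 0.00339 to 0.698 by the exact test. Thus a difference in location between dense and smaller clusters was not shown by the optimal set joined at 10 kb, and the intervals allow odds from under 1 to over 1 for each measure.

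In the cluster at Epha4, a receptor tyrosine kinase for ephrins, 8 summits lay inside the gene (chr1:77440655-77457127), 58.0 kb or more from its start. Their signals were 58.6, 93.9, 68.1, 28.0, 68.5, 56.1, 23.2 and 9.8. The TSS nearest on the other side was that of Slc4a3, an anion exchanger, 1890 kb away. All 8 peaks were among the top peaks of replicate 1, and the first 3 among those of replicate 2. The last pair of summits, 215 bp apart, had overlapping regions and met 1 region of replicate 1 with a signal of 19.6.

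In Etv5, an ETS family transcription factor, 7 summits lay inside the gene (chr16:22398567-22413095), 26.5 kb or more downstream of its start. Their signals were 38.5, 135.0, 114.6, 16.6, 53.0, 37.7 and 63.1. Of its peaks, 6 were in the conservative set, and the top lists held 7 (replicate 1) and 6 (replicate 2). The exception was the last peak, the one nearest to the start, with 57.1 in replicate 1 and 8.1 in replicate 2. Tra2b, a splicing factor, started 133 kb away on the other side.

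On the same chromosome, a cluster of 7 (chr16:13967021-13987355) held the starts of Ifitm7, of the interferon-induced transmembrane family, and Bmerb1. Its signals were 31.9, 51.3, 41.6, 74.7, 59.0, 37.1 and 44.1, all within a narrow band. The first 6 peaks were in the conservative set and in both top lists. The 7th, 0.488 kb from a TSS, had 42.3 in replicate 1 and 6.7 in replicate 2. With 2 overlapping pairs, the cluster held 5 summits after merging. The nearest starts outside were those of Pdxdc1 (63.8 kb) and Marf1 (172 kb).

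A cluster of 7 lay inside Btbd11 (chr10:85532167-85545369), 147 kb from the start of that gene and 166 kb from that of Gm6713. Its signals were 20.1, 21.6, 110.9, 76.0, 16.0, 17.9 and 9.7. The middle 3 peaks were in both top lists. The first and the last 2 were in neither.

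The cluster between Tuba1a and Tuba1c, both alpha-tubulin genes, held 7 summits (chr15:98978612-98997999) with starts 25.1 kb and 31.9 kb away. Its signals were 27.4, 30.7, 24.9, 28.6, 15.5, 29.9 and 35.7. No peak was in the top lists of both replicates. Replicate 1 had 3 and replicate 2 had 1. The peak of 24.9, found among the top peaks of replicate 2 only, had 8.7 in replicate 1 and 16.4 in replicate 2. The span overlapped the non-coding genes B430209F14Rik and 4930578M01Rik only.

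The cluster at Eif4ebp1, whose product binds eIF4E and holds back cap-dependent translation, had the highest summed signal (599.6). Its 6 summits (chr8:27236418-27262706) had signals of 192.1, 131.9, 61.9, 83.9, 40.8 and 89.0. All 6 were among the top peaks of replicate 1, and 4 among those of replicate 2. The peak of 131.9 had 121.8 in replicate 1 and 9.6 in replicate 2, while its neighbour of 192.1 had 127.5 and 65.4. On the outer side lay the start of Adrb3, a beta-adrenergic receptor, at 5.57 kb, and on the other that of Tex24 at 81.6 kb.

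The longest cluster (27.5 kb, chr9:78350202-78377727) held the start of Dppa5a and reached into Ooep, which started 0.861 kb past the last summit. Dppa5a is a marker of pluripotent cells and Ooep a gene of the oocyte. Its 6 signals were 46.8, 84.9, 79.4, 22.9, 287.1 and 34.8. The highest, whose nearest TSS was that of Ooep at 3.41 kb, had 175.4 in replicate 1 and 111.1 in replicate 2. The peak of 84.9 had 40.9 and 45.7. Gsta2, a glutathione transferase, started 3.01 kb before the cluster.

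At Klf9, a Krüppel-like factor, 6 summits (chr19:23133416-23153928) lay on both sides of the start. Their signals were 70.0, 25.6, 22.0, 29.2, 34.2 and 279.4. The highest lay 12.7 kb inside the gene, with 165.7 in replicate 1 and 111.6 in replicate 2. The first pair, 201 bp apart, overlapped. The nearest starts outside were those of Smc5 (120 kb), of a chromosome maintenance complex, and Trpm3 (996 kb), an ion channel.

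In Arhgap26, 6 summits (chr18:38626098-38636940) had signals of 143.3, 53.0, 12.9, 27.4, 74.4 and 31.7. All lay inside the gene, 24.5 kb or more from its start, and Fgf1 started 293 kb away. On the outer side Spry4, an inhibitor of receptor tyrosine kinase signalling, started 24.8 kb from the span. In each top list 5 peaks were found, and the peak of 12.9 was in neither.

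At Mkrn1, a makorin E3 ubiquitin ligase, the cluster (chr6:39420728-39435368) had signals of 57.2, 44.4, 31.0, 45.8, 71.0 and 89.2. The signals of the last 4 rose with distance from the start, and the peak within the gene had 53.9 in replicate 1 and 4.4 in replicate 2. The top peaks of replicate 1 held all 6, and those of replicate 2 held 4. Rab19 started 40.0 kb away and Dennd2a 123 kb away.

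In Myo10, a myosin of filopodia, 6 summits (chr15:25752794-25773761) had signals of 26.2, 60.7, 24.8, 30.0, 49.0 and 98.6. The 5′ end of the gene was 130 kb away, but a RefSeq start inside the gene lay in the cluster. The next start outside was that of Retreg1, a receptor of ER-phagy, at 69.5 kb. In each top list 4 peaks were found, 3 of them in both.

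The other 20 clusters fell outside the rule for naming genes, and those below are named after their values were seen. The highest peak of the dense clusters, 398.0, lay in a cluster whose last summit was 17.7 kb from the start of Sall1, a zinc finger factor. Its other 4 signals were 22.5, 81.4, 38.4 and 33.4. The 398.0 peak (chr8:89003468-89003863) lay 40.5 kb from the start and had 289.4 in replicate 1 and 108.3 in replicate 2. Upstream of Med13l, a Mediator subunit, 1 peak of 277.8 stood among 4 of 25.9 to 46.2, 114 kb or more from the start.

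At Phc1, a Polycomb protein, all 5 peaks (36.5, 95.3, 15.4, 14.5 and 121.1) were in the conservative set. All were also among the top peaks of replicate 1, and 4 among those of replicate 2. It was the 1 cluster with every peak in the conservative set. Near Rybp, another Polycomb-associated gene, the outer peaks of 132.8 and 85.7 were in both top lists and the 3 between them, 17.5, 21.0 and 8.8, in neither. The cluster lay 90.9 kb from the Rybp start.

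In the cluster nearest to Apela, which encodes a small peptide hormone, the signals were 32.8, 45.8, 29.7, 29.1 and 14.0. No peak was in the conservative set or in the top list of replicate 2, and 4 were in that of replicate 1. Replicate 2 listed regions of 6.7 and 5.1 at the first 2 peaks and none at the other 3. At St6galnac1, a sialyltransferase gene, the signals were 27.2, 27.2, 12.6, 23.6 and 9.3. There no peak was in the conservative set or the top list of replicate 1, and 2, which overlapped each other, were in that of replicate 2. These 2 clusters went opposite ways between the replicates.

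Recurrence in other lists is given per peak and per cluster. All lists came from the same 2 libraries, so no test was made. Each replicate's top list held its 15891 highest regions by signal, as many as the whole optimal set, out of 300000 in its relaxed list. The conservative set, the authors' stricter set, held 9431 peaks.

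The conservative set shared 1 bp or more with 99 of the 181 dense peaks (54.7%, exact interval 47.1 to 62.1%), against 56.7% of all optimal peaks. The top list of replicate 1 met 147 (81.2%, 74.8 to 86.6%), against 86.4%, and that of replicate 2 met 100 (55.2%, 47.7 to 62.6%), against 54.6%. Both top lists met 92 (50.8%, 43.3 to 58.3%), against 50.4%. Peaks of 1 cluster are not independent, so these intervals are too narrow. Dense peaks thus came back about as often as optimal peaks in general. For replicate 1 the interval held the background of 86.4%. The share there was 84.2% in the 24 clusters left when summits within 500 bp counted as 1.

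At like signal the picture was mixed. Dense peaks were split into 4 ranges of signal, each with 45 or 46 of them. In the lowest range (7.6 to 25.6), 22.2% were in the conservative set against 12.7% of other peaks. All the dense peaks behind that 22.2% belonged to overlapping pairs, whose summits can meet 1 region together. Such pairs took in 21.0% of dense peaks against 8.42% of all optimal peaks, and they were not merged here. From 25.6 to 36.7 the order was reversed, 26.7% against 34.4%. From 36.7 to 58.6 it was 77.8% against 66.0%, and in the highest (58.6 to 398.0) 91.3% against 95.6%. In the top list of replicate 2 the shares, from the lowest range to the highest, were 28.9% against 19.6%, 31.1% against 28.5%, 68.9% against 58.5% and 91.3% against 94.5%. In these counts dense peaks had the higher share in all but the highest range. Most of the dense peaks behind the 28.9% also belonged to overlapping pairs. Differences within a range were not tested, and with 45 or 46 dense peaks each they can be small counts. In that of replicate 1 they were 42.2% against 45.7%, 82.2% against 90.4%, 100% against 99.8% and 100% for both, so dense peaks had the lower share in the lowest ranges.

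**Figure D3:**
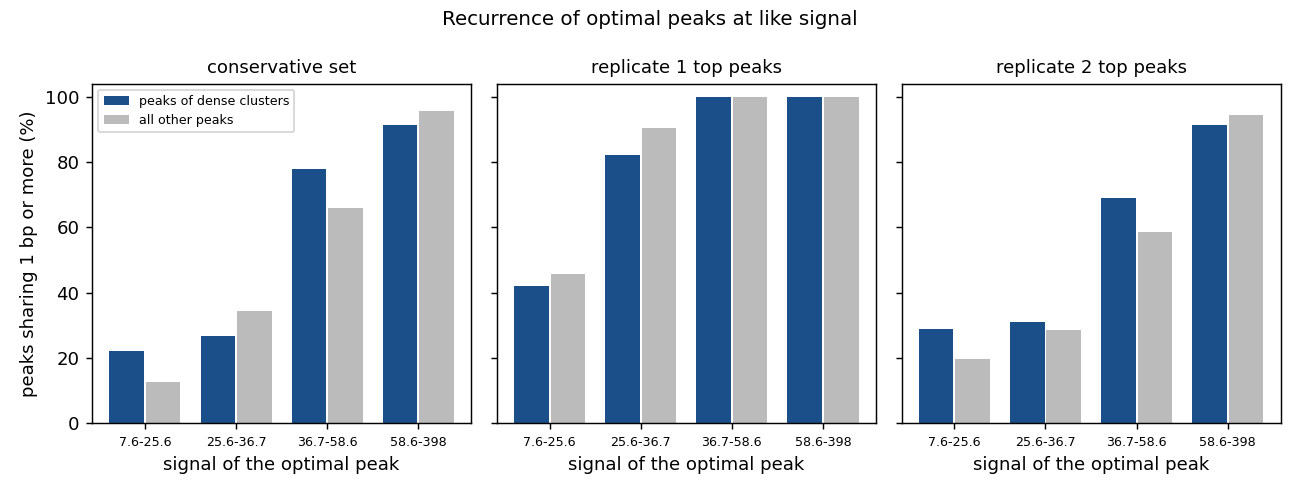
Bars give the percent of optimal peaks that share 1 bp or more with the conservative set and with each replicate's top peaks, in 4 ranges of optimal signal, for dense clusters (blue) and all other peaks (grey). In the conservative set both rise with signal, from 22.2% to 91.3% in dense clusters and from 12.7% to 95.6% elsewhere. Peaks of overlapping pairs are counted separately.

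The highest peak of a cluster was in the conservative set in 25 of 32 clusters and in both top lists in 25. The lowest was in the conservative set in 9 and in both top lists in 6. Over all optimal peaks the shares were 56.7% and 50.4%. Both peaks were picked by signal, and among other peaks the share in the conservative set also rose with signal, from 12.7% to 95.6%. This contrast is therefore not a trait of dense clusters. The whole relaxed list of replicate 1 had a region at all 181 peaks, with signals of 8.5 to 289.4 and a median of 28.1. That of replicate 2 had one at 151 of them, with 4.4 to 111.6 and a median of 11.9. The scale of each list is its own, and the medians were not compared.

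As clusters, few came back whole. Applied to the conservative set the rule gave 5 dense clusters, and 4 of these (80.0%) overlapped a dense cluster of the optimal set, at Epha4, Etv5, Ifitm7 and Bmerb1, and Phc1. That was 12.5% of the 32. The top list of replicate 1 gave 21, of which 11 (52.4%) overlapped a dense cluster, 34.4% of the 32. The top list of replicate 2 gave 6, of which 4 (66.7%) did so, at Etv5, Dppa5a and Ooep, Arhgap26 and St6galnac1. At St6galnac1 the overlapping cluster of replicate 2 had 5 summits, of which 2 lay in the span, so most of it lay outside.

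Only the Etv5 cluster was dense in all 3 lists, and it and the one in Arhgap26 were dense in both replicates. In none of the 3 lists were 18 clusters dense. With a lower bar, 3 or more summits in the span widened by 100 bp on each side, 20 clusters came back in the conservative set, 29 in replicate 1 and 21 in replicate 2. The median number of summits in the span was 3.0, 4.0 and 3.0.

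**Figure D4:**
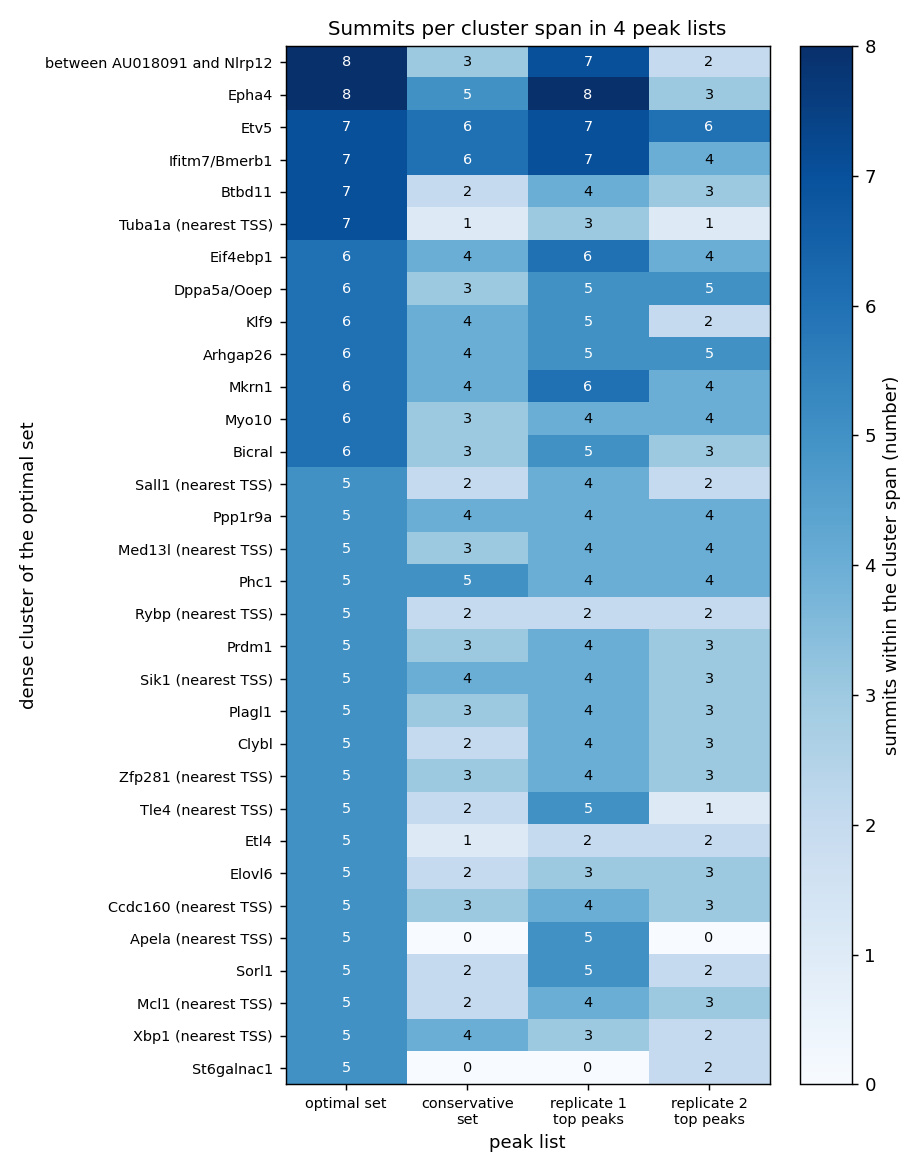
Each row is a dense cluster and each column a peak list, and the number and shade give the summits of that list within the span of the cluster. The Etv5 row stays at 6 or 7 in every list, and the rows of Apela and St6galnac1 fall to 0 in the conservative set.

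Of 201 genes on 7 lists of known function, 4 had their start within 50 kb of a dense cluster. Over all protein-coding genes with a known strand it was 48 of 21321 (0.225%). Among 33 genes of core and naive pluripotency there were 2, Dppa5a, with its start inside a cluster, and Zfp281, 49.8 kb from one. Zfp281 encodes a zinc finger factor, and its cluster had signals of 48.1, 56.9, 29.6, 28.4 and 44.3. The count of 2 for this list was 1 without replicate 1 and 0 without replicate 2.

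Among 20 genes of the formative and primed epiblast there was Etv5, and among 36 signalling genes Spry4. None was found among 31 genes of chromatin and DNA methylation, 33 lineage regulators, 22 housekeeping genes and 26 genes of liver, muscle and blood. The lists do not hold every gene of a kind. Phc1, with its start inside a cluster, and Sall1, 17.7 kb from one, were on none of them. The count for chromatin and DNA methylation was 1 without replicate 1 and also 1 without replicate 2. With the conservative set Etv5 alone was left. The lists were chosen with earlier results known, and these counts are a description.

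Promoter windows of RefSeq (GRCm38.p6, 250 bases before to 50 after a start) were met by dense peaks at 5 starts among 32619, those of Platr22, Mkrn1, Myo10, 4930578M01Rik and Gm42407. The same count for all optimal peaks is not given here, so 5 cannot be read as few or many. Only the window of Platr22, a non-coding RNA gene, held a summit, the peak of 44.3 at the end of the cluster near Zfp281, with 27.5 in replicate 1 and 13.7 in replicate 2. Its sequence is shown for that reason, on the + strand, with no capitals because none of the 5 motifs described next was found in it.
Platr22 (chr1:136695961-136696260): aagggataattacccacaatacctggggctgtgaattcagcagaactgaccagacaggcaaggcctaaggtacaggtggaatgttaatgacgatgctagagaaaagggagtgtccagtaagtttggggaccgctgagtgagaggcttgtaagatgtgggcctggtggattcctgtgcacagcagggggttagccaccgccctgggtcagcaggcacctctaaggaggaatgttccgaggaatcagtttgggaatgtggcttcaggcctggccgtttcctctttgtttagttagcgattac

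The motifs were CATTGT (SOX), ATGCAAAT (OCT), TCAAGGTCA (ESRRB), GGGTGTGG (KLF) and TAATGG (homeodomain), searched as exact letters on both strands. Of all promoter windows, 12.2%, 1.75%, 0.426%, 3.57% and 7.69% held them. The window of 4930578M01Rik held the KLF motif and that of Gm42407 the SOX motif. A match is a description, and its absence says only that these letters are not in the window.

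The sequence of mm10 was not used here, so motifs in peaks were read from the authors' mm9 list of the series, with the same rule for clusters. It held 13340 peaks on these chromosomes, and centres of regions stood in for summits. It gave 8 dense clusters with 44 peaks. By gene, 6 shared an overlapped or neighbouring gene with a dense cluster on mm10, at Epha4, Etv5, Mkrn1, Eif4ebp1, Dppa5a and between AU018091 and Nlrp12. The other 2 were in Wasf3 and Tns3. Coordinates of the builds were not compared.

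In windows of 101 bp around the centre, the SOX motif was found in 5 of the 44 (11.4%, exact interval 3.79 to 24.6%), against 16.1% of all mm9 peaks. The ESRRB motif was found in 2 (4.55%, 0.555 to 15.5%), against 1.4%. The homeodomain motif was found in 1 (2.27%, 0.0575 to 12%), against 6.85%. The OCT motif, against 2.35%, and the KLF motif, against 1.4%, were found in 0 of 44, which allows a share of up to 8.04%. Each interval holds the share over all peaks, and a difference was not detectable with 44 windows. Any of the 5 was in 8 windows (18.2%) against 26.0% of all, and the median GC content was 48.0% against 45.5%.

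The windows with a motif in clusters shared by gene with mm10 are shown, on the + strand of mm9, with the motif or its reverse complement in capitals. The windows between AU018091 and Nlrp12 and at Gsta2 and Dppa5a carry the SOX motif, as does 1 at Etv5. The other Etv5 window carries the ESRRB motif and that at Eif4ebp1 the homeodomain motif.
between AU018091 and Nlrp12 (chr7:3206627-3206727): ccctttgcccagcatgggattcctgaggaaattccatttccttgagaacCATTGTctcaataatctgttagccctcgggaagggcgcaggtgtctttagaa
Eif4ebp1 (chr8:28373113-28373213): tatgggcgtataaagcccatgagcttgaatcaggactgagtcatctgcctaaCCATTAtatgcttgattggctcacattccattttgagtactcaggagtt
Gsta2 and Dppa5a (chr9:78198006-78198106): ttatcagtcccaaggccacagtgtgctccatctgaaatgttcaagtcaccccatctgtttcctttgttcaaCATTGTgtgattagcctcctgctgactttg
Etv5, SOX (chr16:22406250-22406350): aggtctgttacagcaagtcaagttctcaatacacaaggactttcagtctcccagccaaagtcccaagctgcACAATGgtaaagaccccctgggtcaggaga
Etv5, ESRRB (chr16:22413114-22413214): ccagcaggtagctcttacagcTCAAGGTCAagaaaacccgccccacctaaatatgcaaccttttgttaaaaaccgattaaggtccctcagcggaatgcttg

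The authors' mm9 enrichment of these 5 peaks was 20.87, 14.26, 8.89, 7.72 and 10.24, in the order shown. The window between AU018091 and Nlrp12 belonged to the cluster next to the miR-290 hairpins, and the Etv5 windows to the cluster that was dense in every mm10 list. The Etv5 cluster on mm9 held 6 peaks over 14.6 kb. No other cluster shared with mm10 had more than 1 window with a motif.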

How the data were processed

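The authors' files are peak lists, and read depth is unknown. The sources used here do not give the aligner, the peak caller or the IDR threshold. The deposited mm10 lists give, by the field order of their type, a signal per peak whose scale is not stated, and the -log10 of the q-value. The deposited mm9 list gives an enrichment ratio (fold) per peak whose reference is not stated, and how replicates were combined is not stated. The build of each file is per the labels' README.

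Computation used pandas 2.3.3 and NumPy 2.4.6 on Python 3.11.15, with SciPy 1.17.1 for tests and matplotlib 3.10.9 for plots. Unique summits were joined at 10 kb or less, and clusters of 5 or more were kept. Replicate lists were ranked by signal. TSS positions on mm10 came from a RefSeq gene table with 21631 protein-coding genes, of which 21321 had a strand, 17274 from the RefSeq promoter table and 4047 from the mm9 annotation. Where the text gives a distance to a gene without naming its start, it is to the nearest end of the gene. Coordinates are 1-based. Location tests were checked on simulated data. Members, lists and motifs were chosen with earlier results of these data known.

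Named genes are those overlapped by the 12 clusters with the most summits, the nearest TSS on either side, and up to 4 members of each list within 50 kb. Alternatives changed the joining distance, the smallest cluster, the list, the matching and the length of the top lists. The relaxed list of the pooled replicates and the mm9 lists of single replicates were not used here.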

Additional observations from a re-analysis of the deposited data

Results flagged for a closer look

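Peaks outside the chromosomes on which clusters were formed carried signal. The optimal set had 23 peaks on the unplaced sequence chrUn_JH584304, over 96835 bp and with signals of at most 131.4. The top list of replicate 1 had 20 peaks there and that of replicate 2 had 29. On chrM, the mitochondrial genome, the optimal set had 12 peaks with signals of at most 135.1, and the top lists had 8 and 19. No control list was used here, and these peaks entered no cluster.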

How the results depend on the processing

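The number of dense clusters (32) followed the rule: 10 with a joining distance of 5 kb, 105 with 20 kb, 115 with 4 or more summits, 13 with 6 or more, 5 in the conservative set, and 6 to 21 with 1 replicate left out. Their peaks (181) numbered 55, 605, 513, 86 and 27 in the same order, and 33 to 122 with 1 replicate left out, and the median length was 7.93 kb at 5 kb and 31.2 kb at 20 kb. Merging summits within 500 bp left 24 clusters. Clusters found again in the conservative set (4) became 20 at 3 summits in the span and 2 after merging. For replicate 1 (11) they became 29 at 3 summits, 5 with the top 10000 peaks and 27 with the top 25000. For replicate 2 (4) they became 21 at 3 summits, 2 after merging and 1 with the top 10000 peaks. The share of peaks in replicate 1 (81.2%) became 59.1% with the top 10000 and 95.6% with the top 25000, and that in replicate 2 (55.2%) became 47.0% with the top 10000 and 47.5% when summits had to lie within 100 bp. The odds ratio for lying inside a gene (0.925) turned to 1.79 at 5 kb, 1.41 after merging and 1.82 with the conservative set, and ran from 0.598 to 1.04 with 1 replicate left out. That for 10 kb (0.905) turned to 1.05 at 20 kb and 2.64 with the conservative set, and ran from 0.952 to 1.92 with 1 replicate left out. None of these passed the threshold (adjusted p of 0.424 to 1.0 and of 0.573 to 1.0 by Fisher's exact test). The odds ratio for 50 kb (2.0) passed at 20 kb (1.96) and without replicate 2 (3.98), and ran up to 10.4 without replicate 1, with 0.5 added to each count because 1 was 0. Listed genes near a cluster (4) fell to 1, Etv5, with the conservative set. The cause of these changes was not tested, beyond the rule or list that each alternative changed. Counting every RefSeq start as a TSS, an alternative chosen after seeing the data, changed no location call. No paired analysis was possible because the labels give only 1 group. Unknown read depth limits what the absence of a peak in a replicate's list shows.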
